A study of Mus musculus with 18 samples.

Results

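Red cell precursor genes were read in RNA from sorted splenic T cells after transplantation. They are 34 listed genes of developing red cells, and 33 of them were among the 46073 genes of the count table: 32 under their symbol and Epb42 under the older symbol Epb4.2. Ahsp, the chaperone of free alpha globin, was not analysed here. The genes were put together because their levels were high in the syngeneic WT libraries, so every value set against those libraries is given below as a description, without a test.

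The 12 libraries formed 4 groups of 3. Allogeneic KO libraries came from Wapl KO donor T cells, and allogeneic WT libraries from WT control donor T cells. Wapl encodes the factor that releases the cohesin ring from chromosomes. Both allogeneic groups were taken from CByJ.SJL(B6)-Ptprca/J recipients given 8 Gy and 1000000 donor T cells. Syngeneic KO and syngeneic WT libraries came from Wapl KO and WT control donor T cells in recipients labelled syngeneic, which per the protocol were B6.SJL-Ptprca Pepcb/BoyJ mice given 9.5 Gy and 8500000 donor T cells. The cell type field of the syngeneic KO libraries names the allogeneic strain instead, and these libraries were grouped by their transplant type. All recipients were female, 8 to 12 weeks old, and also received 5000000 T cell depleted marrow cells. Donors were C57BL/6, the cells were taken on day 7, and each library pooled 2 to 4 mice. The sort kept live cells carrying CD3, a part of the T cell receptor, and the donor form of CD45. The Cre line and the deleted part of Wapl are not given in the sources used here. Strain, irradiation and T cell dose all differed between the allogeneic and syngeneic recipients, so their parts in a difference between these groups cannot be told apart.

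Depth lay between 45965659 and 89007100 counts in the 12 libraries, and the filter on low counts left 18447 genes to test. Wapl itself was between 123.5 and 151.4 CPM (counts per 1000000 counts of the library, TMM-scaled) in allogeneic KO libraries, against 156.1 to 168.7 CPM in allogeneic WT libraries. It was between 127.4 and 139 CPM in syngeneic KO libraries, against 170.1 to 210.7 CPM in syngeneic WT libraries. Wapl RNA was thus lower but still present in KO libraries, and how complete the deletion was cannot be read from these levels. The summed level of 9 T cell markers was 3589 to 5336 CPM in allogeneic KO and 3813 to 4284 CPM in allogeneic WT libraries. It was 3135 to 5150 CPM in syngeneic KO and 2842 to 3838 CPM in syngeneic WT libraries, with no marker at 0. Syngeneic WT replicates 2 and 3 were the lowest of the 12 libraries, at 2842 and 2981 CPM. Genes of ribosomal RNA took 16.1 to 18% of the counts in allogeneic KO, 8.27 to 17.8% in allogeneic WT, 24 to 32.1% in syngeneic KO and 20.2 to 23.1% in syngeneic WT libraries.

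Red cells arise from progenitors in marrow and, in mice, also in the spleen, which becomes a main site of red cell production after irradiation and marrow transplantation. The transcription factors GATA1, TAL1 and KLF1 switch on globin, haem and membrane genes, and erythropoietin signals through its receptor to keep the precursors alive. As precursors mature they fill with haemoglobin, build the spectrin skeleton under the membrane, put out the nucleus and clear away most other proteins and RNA. T cells do not make globin or band 3, but they do express several of the genes listed here, among them Tfrc, Prdx2 and Xpo7.

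Promoter windows of the members were read because the members were high together. RefSeq windows of 300 bases on GRCm38.p6, from 250 before to 50 after a start site, were found for 26 members, which had 31 windows. The 6 shown are those of both beta globins, 1 alpha globin, a membrane gene, the erythropoietin receptor and Tmcc2, which the comparison of KO groups calls below. Tmcc2 has 3 windows, and the 1 shown is that with AGATAA; the other two hold none, and 1 of them holds 5 matches to the KLF motif. Capitals mark matches to AGATAA, a motif of GATA factors, and to CCNCNCCC, a motif of the KLF family, or to the reverse complements TTATCT and GGGNGNGG.
Hbb-bs (chr7:103827879-103828178, minus strand): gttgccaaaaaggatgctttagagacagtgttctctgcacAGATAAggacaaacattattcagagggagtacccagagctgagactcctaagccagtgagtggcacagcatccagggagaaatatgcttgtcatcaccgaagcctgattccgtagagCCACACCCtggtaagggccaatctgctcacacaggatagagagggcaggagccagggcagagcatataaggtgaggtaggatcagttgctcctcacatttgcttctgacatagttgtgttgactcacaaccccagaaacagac
Hbb-bt (chr7:103813874-103814173, minus strand): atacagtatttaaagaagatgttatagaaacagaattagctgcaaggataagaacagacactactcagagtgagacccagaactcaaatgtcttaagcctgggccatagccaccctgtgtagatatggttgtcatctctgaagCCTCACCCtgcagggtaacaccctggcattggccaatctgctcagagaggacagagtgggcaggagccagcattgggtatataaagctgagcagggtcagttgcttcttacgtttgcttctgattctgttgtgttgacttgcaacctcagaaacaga
Hba-a1 (chr11:32283422-32283721, plus strand): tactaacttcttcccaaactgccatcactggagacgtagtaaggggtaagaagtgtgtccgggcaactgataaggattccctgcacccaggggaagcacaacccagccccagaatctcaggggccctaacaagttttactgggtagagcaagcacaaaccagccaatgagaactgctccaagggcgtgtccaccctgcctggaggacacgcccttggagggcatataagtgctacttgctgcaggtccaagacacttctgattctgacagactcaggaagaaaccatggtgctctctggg
Epb42 (chr2:121036828-121037127, minus strand): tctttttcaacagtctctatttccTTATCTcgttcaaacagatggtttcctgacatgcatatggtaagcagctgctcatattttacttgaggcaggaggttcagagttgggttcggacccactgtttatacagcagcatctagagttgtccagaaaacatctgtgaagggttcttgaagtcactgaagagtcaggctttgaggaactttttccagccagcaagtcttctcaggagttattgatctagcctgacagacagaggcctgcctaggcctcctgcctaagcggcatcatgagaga
Epor (chr9:21963527-21963826, minus strand): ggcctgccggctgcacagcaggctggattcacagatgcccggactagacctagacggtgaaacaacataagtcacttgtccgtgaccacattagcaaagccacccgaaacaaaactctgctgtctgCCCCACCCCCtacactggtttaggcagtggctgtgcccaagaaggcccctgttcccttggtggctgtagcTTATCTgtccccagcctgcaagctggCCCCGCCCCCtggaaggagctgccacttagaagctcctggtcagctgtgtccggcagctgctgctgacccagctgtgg
Tmcc2 (chr1:132367899-132368198, minus strand): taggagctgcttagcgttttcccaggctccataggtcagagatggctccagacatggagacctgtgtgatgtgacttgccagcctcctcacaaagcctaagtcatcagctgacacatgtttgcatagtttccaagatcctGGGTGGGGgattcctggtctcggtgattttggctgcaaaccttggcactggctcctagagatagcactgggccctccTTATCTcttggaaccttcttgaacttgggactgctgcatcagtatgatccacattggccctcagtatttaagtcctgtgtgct
Matches in the capitals are descriptions of letters, not of bound sites. AGATAA stood in 9 of the 31 member windows (29%), against 11.2% of all 32851 windows. CCNCNCCC stood in 19 member windows (61.3%), against 49.5% of all windows. The E-box CANNTG, which TAL1 and its partners bind, stood in 21 member windows (67.7%), against 72.3% of all windows, and is not capitalised. The Hbb-bs window held AGATAA starting 210 bases before the start site and a KLF motif starting 93 bases before it, and the Hbb-bt window held a KLF motif starting 107 bases before it. No AGATAA or CCNCNCCC was found in this window of Hba-a1. For GATA factors only AGATAA and its reverse complement were searched, so other forms of their motif were not counted in any window. Windows of the other members were searched in the same way and are not printed.

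Within each pair of globin copies the sequences are nearly the same. The open reading frames of Hba-a1 and Hba-a2 matched at 428 of 429 bases, and those of Hbb-bs and Hbb-bt at 443 of 444 bases. Reads may therefore have been split between the copies, and how the counting shared them is not given in the sources used here, so the split within each pair is uncertain. The promoter windows of the alpha pair matched at 98% of aligned bases and those of the beta pair at 70.6%.

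Mean levels of all 33 genes were highest in syngeneic WT libraries. The summed level of the members was 428.7 to 510.3 CPM in allogeneic KO, 336 to 595 CPM in allogeneic WT, 393 to 632 CPM in syngeneic KO and 3576 to 8552 CPM in syngeneic WT libraries. By the median of each role the globins stood furthest below syngeneic WT and transcription factors less, and the enzymes Car1 and Prdx2 stood nearest to it. Roles overlapped: for syngeneic KO against syngeneic WT the log2 fold change was -6.26 for Cd36 and -6.16 for Tmcc2, beside -6.14 for Hba-a1. This order comes from the contrast that chose the members and is a description only. No member had a count of 0 in any library, 18 members were at 1 CPM or more in all 9 libraries outside syngeneic WT, and all 33 passed the filter on low counts with or without the syngeneic WT libraries. In bulk RNA, fewer cells of a type and less RNA per cell cannot be told apart.

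**Figure D1:**
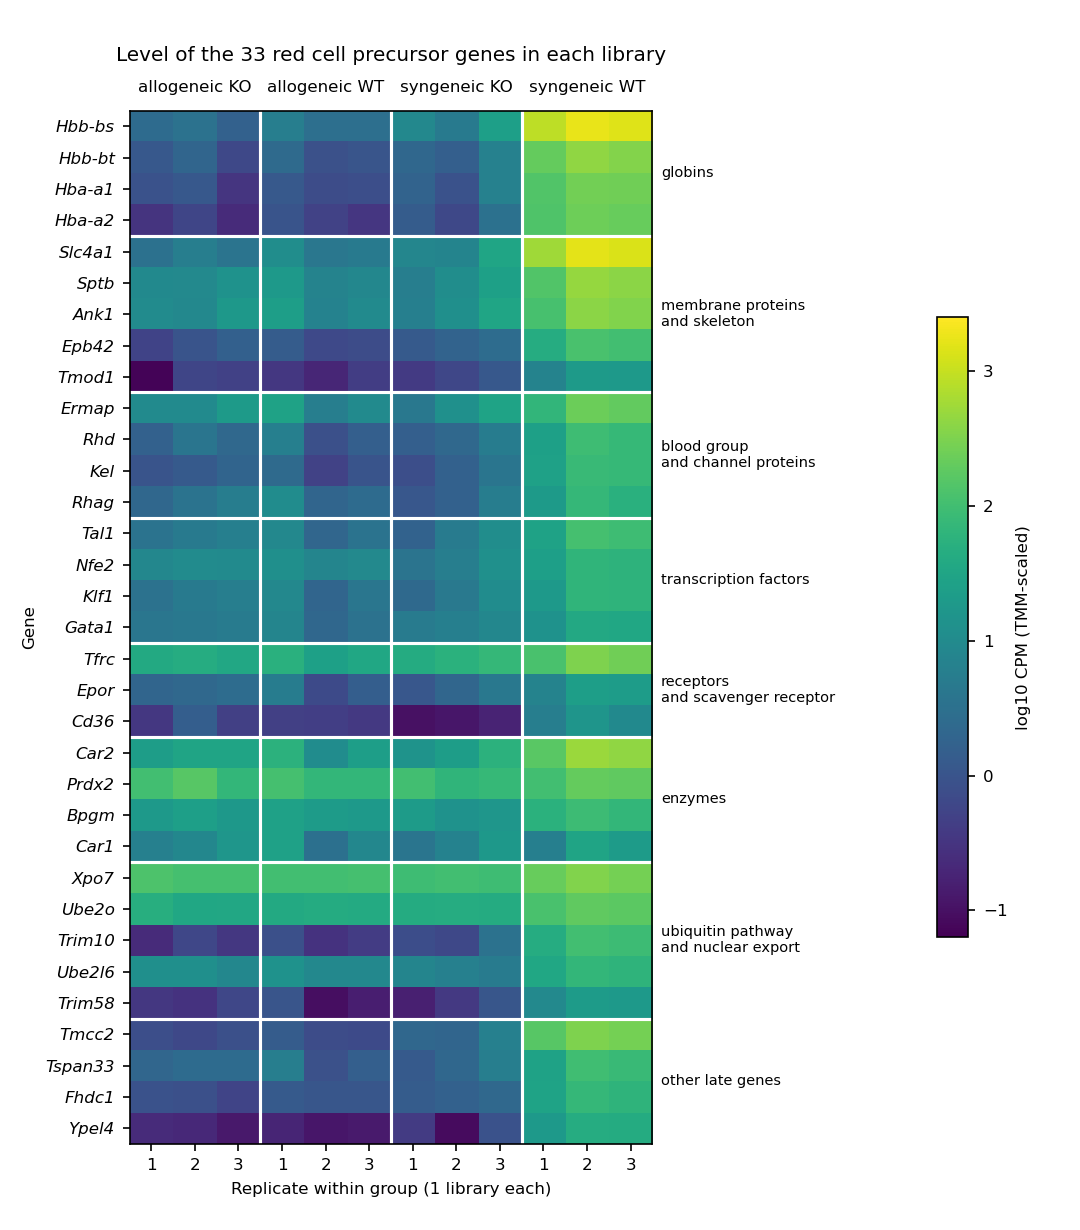
Level of each of the 33 genes (rows, grouped by role) in each of the 12 libraries (columns, 3 per group), as log10 CPM on a colour scale. Syngeneic WT libraries form the bright block on the right, and 6 genes (Tfrc, Bpgm, Car2, Xpo7, Ube2o and Prdx2) are at 10 CPM or more in all 9 other columns.

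Globins carry oxygen, and the adult mouse beta and alpha chains are made from the 4 genes measured here. Hbb-bs stood at 2.51, 3.37 and 1.68 CPM in allogeneic KO, 5.78, 3.05 and 2.99 CPM in allogeneic WT, 8.72, 5.05 and 24.7 CPM in syngeneic KO and 886, 1786 and 1512 CPM in syngeneic WT libraries. Hbb-bt stood at 1.17, 2.002 and 0.622 CPM in allogeneic KO, 2.43, 0.865 and 1.01 CPM in allogeneic WT, 2.17, 1.53 and 6.505 CPM in syngeneic KO and 201, 424 and 354 CPM in syngeneic WT libraries. Hba-a1 stood at 0.891, 1.18 and 0.318 CPM in allogeneic KO, 1.23, 0.753 and 0.794 CPM in allogeneic WT, 1.83, 0.928 and 6.64 CPM in syngeneic KO and 140.4, 263 and 257 CPM in syngeneic WT libraries. The 3 syngeneic WT libraries stood apart from the other 9 for each of these genes, and among the rest syngeneic KO replicate 3 was highest. Hba-a2 stood at 0.305, 0.584 and 0.231 CPM in allogeneic KO, 1.01, 0.519 and 0.338 CPM in allogeneic WT, 1.37, 0.619 and 3.27 CPM in syngeneic KO and 134, 240.5 and 215 CPM in syngeneic WT libraries. Its pattern was that of its near-identical copy. For Hbb-bs the log2 fold change was -6.77 ± 0.677 (SE, n = 3 each) for syngeneic KO against syngeneic WT and -8.47 ± 0.732 for allogeneic WT against syngeneic WT. For Hba-a2 the log2 fold change was -6.82 ± 0.616 (SE, n = 3 each) for syngeneic KO against syngeneic WT and -8.32 ± 0.668 for allogeneic WT against syngeneic WT. Over the 4 globins the median log2 fold change was -6.68 for syngeneic KO against syngeneic WT and -8.12 for allogeneic WT against syngeneic WT, and no library of either first group reached a library of the syngeneic WT group. The ratio of alpha to beta globin per kilobase of exon lay between 0.24 and 0.32 in allogeneic KO, 0.28 and 0.33 in allogeneic WT, 0.24 and 0.32 in syngeneic KO, and 0.23 and 0.26 in syngeneic WT libraries. The syngeneic WT range lay below that of allogeneic WT and overlapped those of both KO groups, and no test was made. The embryonic globins Hbb-bh1, Hbb-y and Hba-x had no counts in any library other than syngeneic WT replicates 2 and 3, where each had 1 to 9 counts, and none was tested.

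The red cell membrane rests on a skeleton of spectrin tied to band 3 by ankyrin and protein 4.2. Slc4a1 stood at 3.26, 5.75 and 3.67 CPM in allogeneic KO, 11.4, 4.16 and 4.66 CPM in allogeneic WT, 8.28, 7.43 and 32.5 CPM in syngeneic KO and 564, 1599.9 and 1389 CPM in syngeneic WT libraries. It encodes band 3, the anion exchanger. Epb42 stood at 0.5396, 0.984 and 1.61 CPM in allogeneic KO, 1.37, 0.651 and 0.727 CPM in allogeneic WT, 1.27, 1.87 and 2.66 CPM in syngeneic KO and 45.3, 122 and 102 CPM in syngeneic WT libraries. This gene encodes protein 4.2, which links band 3 to ankyrin. For both genes the 9 other libraries all lay below the 3 syngeneic WT libraries. Ank1 stood at 10.5, 8.86 and 17.6 CPM in allogeneic KO, 24.2, 6.95 and 9.89 CPM in allogeneic WT, 6.03, 12.3 and 32.1 CPM in syngeneic KO and 117, 391 and 337 CPM in syngeneic WT libraries. Sptb stood at 9.62, 9.17 and 13.8 CPM in allogeneic KO, 18.4, 7.06 and 8.59 CPM in allogeneic WT, 5.75, 11.4 and 26.1 CPM in syngeneic KO and 139.7, 473 and 402 CPM in syngeneic WT libraries. These encode ankyrin 1 and beta spectrin. Tmod1 stood at 0.0704, 0.584 and 0.492 CPM in allogeneic KO, 0.347, 0.193 and 0.439 CPM in allogeneic WT, 0.382, 0.602 and 1.19 CPM in syngeneic KO and 7.25, 20.3 and 18.6 CPM in syngeneic WT libraries. Tropomodulin 1, its product, caps the short actin filaments of the skeleton, and with 3 counts in allogeneic KO replicate 1 it was among the least counted members. For Ank1, Sptb and Tmod1 too, the syngeneic WT libraries were the 3 highest. Over the 5 genes the median log2 fold change was -4.55 for syngeneic KO against syngeneic WT and -5.58 for allogeneic WT against syngeneic WT, and all 5 were without overlap in each.

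Blood group and surface genes followed. Rhag stood at 2.18, 3.62 and 5.700 CPM in allogeneic KO, 10.8, 2.03 and 2.55 CPM in allogeneic WT, 1.11, 1.67 and 5.61 CPM in syngeneic KO and 20.03, 73.1 and 52.3 CPM in syngeneic WT libraries. Rhag encodes the Rh-associated glycoprotein, which carries the Rh complex to the membrane. Rhd stood at 1.67, 3.803 and 2.300 CPM in allogeneic KO, 6.004, 0.855 and 1.55 CPM in allogeneic WT, 1.59, 2.23 and 5.47 CPM in syngeneic KO and 26.4, 92.03 and 76.5 CPM in syngeneic WT libraries. Rhd encodes its Rh partner. Kel stood at 1.01, 1.27 and 1.94 CPM in allogeneic KO, 2.43, 0.509 and 0.9802 CPM in allogeneic WT, 0.804, 1.72 and 3.81 CPM in syngeneic KO and 27.5, 84.2 and 75.5 CPM in syngeneic WT libraries. Kel encodes the Kell protein, an endopeptidase. Ermap stood at 10.2, 10.2 and 19.95 CPM in allogeneic KO, 28.5, 5.77 and 10.04 CPM in allogeneic WT, 4.301, 12.9 and 29.9 CPM in syngeneic KO and 66.8, 232 and 195 CPM in syngeneic WT libraries. Ermap encodes an immunoglobulin-like membrane protein of red cells. For these 4 genes allogeneic WT replicate 1 was the highest of the allogeneic WT libraries, and syngeneic KO replicate 3 was the highest of the syngeneic KO libraries. Their median log2 fold change was -4.25 for syngeneic KO against syngeneic WT and -4.02 for allogeneic WT against syngeneic WT.

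Transcription factors of the lineage were lower by less. Klf1 stood at 3.45, 4.704 and 5.93 CPM in allogeneic KO, 8.797, 2.04 and 4.09 CPM in allogeneic WT, 2.33, 4.503 and 10.9 CPM in syngeneic KO and 19.7, 64.2 and 62.8 CPM in syngeneic WT libraries. Gata1 stood at 4.06, 4.44 and 5.24 CPM in allogeneic KO, 7.79, 2.16 and 3.41 CPM in allogeneic WT, 5.19, 6.03 and 8.57 CPM in syngeneic KO and 13.7, 37.7 and 35.1 CPM in syngeneic WT libraries. Tal1 stood at 3.52, 4.67 and 6.02 CPM in allogeneic KO, 8.94, 2.08 and 3.57 CPM in allogeneic WT, 1.77, 5.14 and 11.3 CPM in syngeneic KO and 28.6, 110.3 and 92.6 CPM in syngeneic WT libraries. KLF1 drives adult beta globin, GATA1 is the master factor of the lineage, and TAL1 works in a complex with it. All 3 were highest in syngeneic WT replicate 2. Nfe2 stood at 8.398, 10.3 and 10.1 CPM in allogeneic KO, 12.2, 7.79 and 9.14 CPM in allogeneic WT, 3.78, 5.95 and 12.8 CPM in syngeneic KO and 24.5, 65.6 and 60.3 CPM in syngeneic WT libraries. NF-E2 p45, its product, also acts in megakaryocytes. Their median log2 fold change was -2.89 for syngeneic KO against syngeneic WT and -3.00 for allogeneic WT against syngeneic WT. For Gata1 the log2 fold change was -2.13 ± 0.465 (SE, n = 3 each) for syngeneic KO against syngeneic WT and -2.70 ± 0.476 for allogeneic WT against syngeneic WT. 

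The receptors differed among themselves. Epor stood at 2.02, 2.29 and 2.65 CPM in allogeneic KO, 5.47, 0.692 and 1.47 CPM in allogeneic WT, 1.13, 2.11 and 4.42 CPM in syngeneic KO and 7.22, 24.4 and 21.8 CPM in syngeneic WT libraries. Epor encodes the erythropoietin receptor. Tfrc stood at 39.6, 44.2 and 36.03 CPM in allogeneic KO, 52.5, 25.6 and 35.2 CPM in allogeneic WT, 43.1, 54.3 and 72.5 CPM in syngeneic KO and 121, 330.0 and 251 CPM in syngeneic WT libraries. Tfrc encodes the transferrin receptor, which brings in iron and which dividing T cells also carry. Cd36 stood at 0.352, 1.52 and 0.477 CPM in allogeneic KO, 0.468, 0.458 and 0.372 CPM in allogeneic WT, 0.1005, 0.1203 and 0.178 CPM in syngeneic KO and 5.85, 15.7 and 9.57 CPM in syngeneic WT libraries. Cd36 encodes a scavenger receptor found on red cell precursors, macrophages and platelets, and it was lower in every syngeneic KO library than in any other library. For Cd36 the log2 fold change was -6.26 ± 0.612 (SE, n = 3 each) for syngeneic KO against syngeneic WT and -4.57 ± 0.539 for allogeneic WT against syngeneic WT.

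Enzymes stood nearest to their syngeneic WT level by the median, though Car2 had a log2 fold change of -3.56 for syngeneic KO against syngeneic WT. Bpgm makes 2,3-bisphosphoglycerate, a regulator of oxygen release, Car1 and Car2 are carbonic anhydrases, and Prdx2 removes peroxide. Bpgm ranged over 17.6 to 24.9 CPM in allogeneic KO, 18.3 to 26.6 CPM in allogeneic WT, 13.99 to 20.9 CPM in syngeneic KO and 54.9 to 89.7 CPM in syngeneic WT libraries. Car1 ranged over 6.24 to 16.8 CPM in allogeneic KO, 3.104 to 27.6 CPM in allogeneic WT, 3.88 to 18.1 CPM in syngeneic KO and 6.22 to 30.1 CPM in syngeneic WT libraries. Car2 ranged over 22.6 to 30.8 CPM in allogeneic KO, 10.7 to 57.7 CPM in allogeneic WT, 14.8 to 57.8 CPM in syngeneic KO and 165 to 519 CPM in syngeneic WT libraries. Car2 was separated between syngeneic WT and the 9 other libraries, and Car1 was not. Prdx2 ranged over 68.8 to 159 CPM in allogeneic KO, 69.7 to 108 CPM in allogeneic WT, 64.9 to 101 CPM in syngeneic KO and 104 to 209 CPM in syngeneic WT libraries. The median log2 fold change of the 4 was -1.55 for syngeneic KO against syngeneic WT and -1.35 for allogeneic WT against syngeneic WT. For Car1 the log2 fold change was -0.99 ± 0.8702 (SE, n = 3 each) for syngeneic KO against syngeneic WT and -0.56 ± 0.862 for allogeneic WT against syngeneic WT. Car1 was the only member whose libraries overlapped in both comparisons, and Prdx2 overlapped in the second.

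The other members clear proteins or shape the late cell. Ube2o and Ube2l6 are ubiquitin-conjugating enzymes, Trim10 and Trim58 are ubiquitin ligases, and Xpo7 exports proteins from the nucleus. Ube2o ranged over 34.5 to 49.1 CPM in allogeneic KO, 39.6 to 42.2 CPM in allogeneic WT, 41.9 to 45.3 CPM in syngeneic KO and 118 to 187 CPM in syngeneic WT libraries. Ube2l6 ranged over 8.36 to 12.6 CPM in allogeneic KO, 8.86 to 14.2 CPM in allogeneic WT, 5.097 to 7.92 CPM in syngeneic KO and 34.7 to 70.9 CPM in syngeneic WT libraries. Trim10 ranged over 0.235 to 0.601 CPM in allogeneic KO, 0.295 to 0.833 CPM in allogeneic WT, 0.636 to 3.35 CPM in syngeneic KO and 44.3 to 102 CPM in syngeneic WT libraries. Each of these 3 was separated between syngeneic WT and the 9 other libraries. Trim58 ranged over 0.3003 to 0.593 CPM in allogeneic KO, 0.0916 to 1.02 CPM in allogeneic WT, 0.161 to 1.07 CPM in syngeneic KO and 9.24 to 21.4 CPM in syngeneic WT libraries. Xpo7 ranged over 109 to 130.2 CPM in allogeneic KO, 101 to 108 CPM in allogeneic WT, 94.1 to 99.7 CPM in syngeneic KO and 210.0 to 333 CPM in syngeneic WT libraries. Over the 5 genes the median log2 fold change was -3.11 for syngeneic KO against syngeneic WT and -2.39 for allogeneic WT against syngeneic WT, with Trim10 furthest below 0 at -5.64 and -7.29 and Xpo7 nearest to it at -1.51 and -1.40.

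Tmcc2 encodes a membrane protein with coiled coils, Fhdc1 a formin that acts on actin and microtubules, Tspan33 a tetraspanin, and Ypel4 a member of the Yippee-like family. Tmcc2 stood at 0.798, 0.634 and 0.839 CPM in allogeneic KO, 1.35, 0.753 and 0.693 CPM in allogeneic WT, 2.13, 2.03 and 6.48 CPM in syngeneic KO and 159, 326 and 276 CPM in syngeneic WT libraries. Fhdc1 stood at 0.915, 0.834 and 0.5498 CPM in allogeneic KO, 1.27, 1.09 and 1.08 CPM in allogeneic WT, 1.37, 1.67 and 2.26 CPM in syngeneic KO and 28.8, 73.3 and 62.5 CPM in syngeneic WT libraries. All 9 other libraries were below the syngeneic WT libraries for both. Tspan33 ranged over 2.04 to 2.604 CPM in allogeneic KO, 0.865 to 5.83 CPM in allogeneic WT, 1.27 to 5.97 CPM in syngeneic KO and 28.1 to 98.02 CPM in syngeneic WT libraries. Ypel4 ranged over 0.1302 to 0.235 CPM in allogeneic KO, 0.122 to 0.191 CPM in allogeneic WT, 0.0859 to 0.892 CPM in syngeneic KO and 18.8 to 45.3 CPM in syngeneic WT libraries. Ypel4 was the 1 member under 1 CPM in all 9 libraries outside syngeneic WT. The 4 genes had a median log2 fold change of -5.56 for syngeneic KO against syngeneic WT and -6.75 for allogeneic WT against syngeneic WT.

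**Figure D2:**
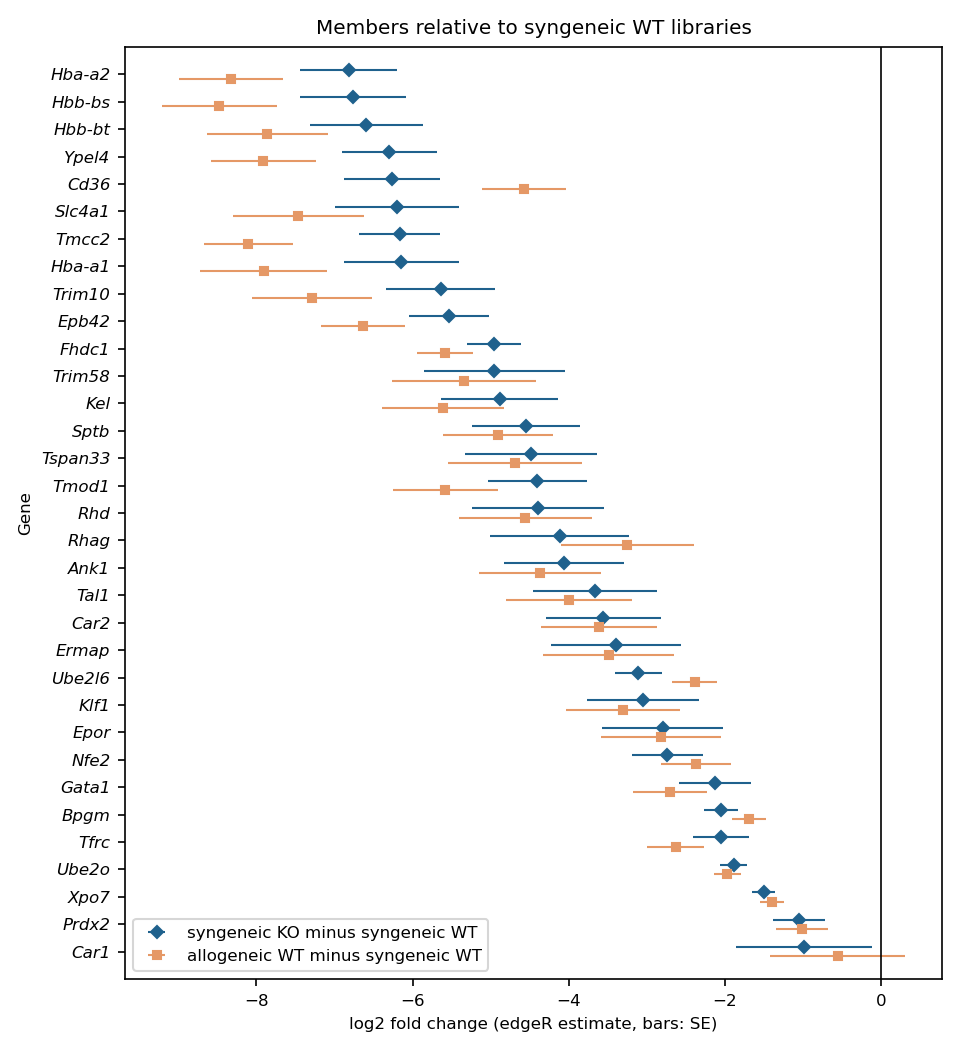
Log2 fold change of each gene, as the edgeR estimate with its SE (bars), for syngeneic KO minus syngeneic WT (diamonds) and allogeneic WT minus syngeneic WT (squares). Values run from -6.82 for Hba-a2 to -0.99 for Car1 in the first and from -8.47 for Hbb-bs to -0.56 for Car1 in the second.

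Over all 33 members, every fold change was below 0 in both of these descriptions, which share the syngeneic WT libraries. In syngeneic KO against syngeneic WT the libraries were fully separated for 32 members, with a median log2 fold change of -4.39 against 0.058 over all tested genes. Of all tested genes, 10.1% had all 3 syngeneic KO libraries below all 3 syngeneic WT libraries. In allogeneic WT against syngeneic WT they were separated for 31 members, with Car1 and Prdx2 overlapping, and the median was -4.55 against -0.028 over all tested genes, of which 27.5% were separated in the same direction. These shares come from the contrast that chose the members and nothing is read from them.

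Levels within the syngeneic WT group were not uniform. Replicate 2 was highest for 33 of 33 members and replicate 1 lowest for 33 of 33. The summed level of the members was 3576, 8552 and 7328 CPM in syngeneic WT replicates 1, 2 and 3. In allogeneic WT libraries replicate 1 was highest for 30 members, and in syngeneic KO libraries replicate 3 was highest for 28. In allogeneic KO libraries the highest library was replicate 1 for 4 members, replicate 2 for 15 and replicate 3 for 14.

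Globins made up 0.66 to 1.4% of the members' summed CPM in allogeneic KO libraries, 1.33 to 1.76% in allogeneic WT, 2.01 to 6.5% in syngeneic KO and 31.7 to 38.1% in syngeneic WT libraries. Only the ranges of the 2 allogeneic groups overlapped. The makeup differed also when set per kilobase of exon. Hbb-bs gave 2.85% of the members' summed level in allogeneic KO, 4.53% in allogeneic WT, 12.5% in syngeneic KO and 47.3% in syngeneic WT libraries. Prdx2 had the highest share in allogeneic KO, allogeneic WT and syngeneic KO libraries, at 31.2, 24.1 and 19.9%, and stood at 1.44% in syngeneic WT. Car1 gave 7.33, 9.23 and 5.8% in the first 3 groups, and 0.4% in syngeneic WT. The ratio of Hbb-bs to Car1 counts lay between 0.0998 and 0.402 in allogeneic KO, 0.21 and 0.984 in allogeneic WT, 0.724 and 2.25 in syngeneic KO, and 59.3 and 142 in syngeneic WT libraries.

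**Figure D3:**
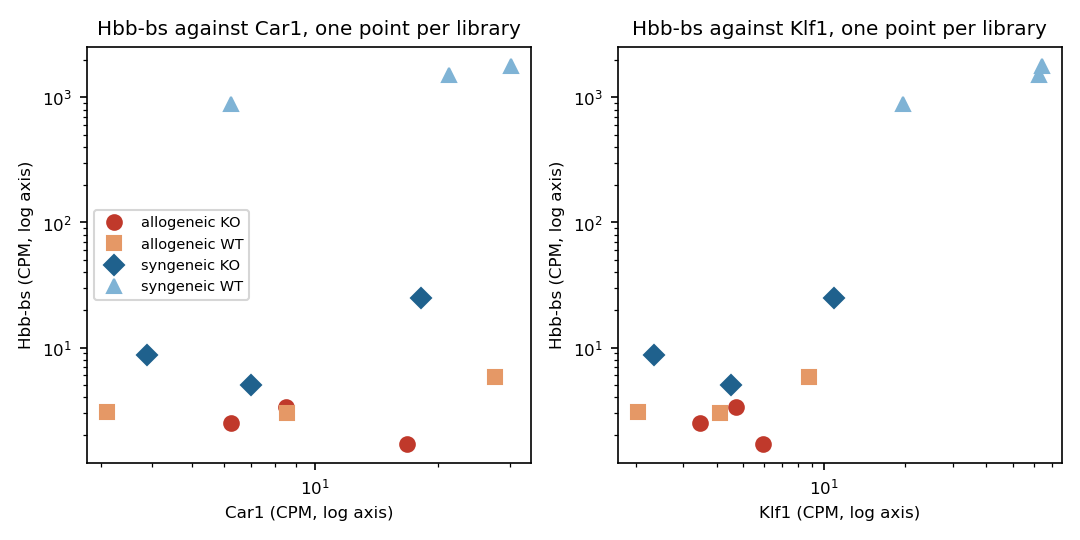
Level of Hbb-bs against that of Car1 (left) and of Klf1 (right), in CPM on log axes, with 1 point per library. Hbb-bs lies between 1.68 and 24.7 CPM in the 9 other libraries and between 886 and 1786 CPM in the syngeneic WT libraries, while their Car1 levels overlap.

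The 2 comparisons that follow did not contrast the syngeneic WT libraries and were tested. Those libraries still entered the filter, the scaling and the estimate of spread, which came from 1 fit of 12 libraries. Results with only the 6 libraries of each comparison are given at the end. The first asked whether Wapl KO donor T cell libraries differed from WT control libraries in allogeneic recipients. No member was called: 0 of 33 passed an adjusted p of 0.05 in edgeR's quasi-likelihood test, 0 fell under 0.05 before adjustment, and by DESeq2 0 were called. Of all tested genes 0.0542% were called by edgeR, 4.18% fell under 0.05 before adjustment, and DESeq2 called 0.311% of those it tested. The median log2 fold change of the members was -0.084, against 0.031 over all tested genes, with 11 above 0 and 22 below. Fhdc1 averaged 0.766 ± 0.192 CPM in allogeneic KO and 1.15 ± 0.105 CPM in allogeneic WT libraries (SD, n = 3 each), a log2 fold change of -0.59 ± 0.343 (SE; edgeR adjusted p = 0.963). Cd36 averaged 0.782 ± 0.6401 CPM in allogeneic KO and 0.433 ± 0.05303 CPM in allogeneic WT libraries (SD, n = 3 each), a log2 fold change of 0.86 ± 0.503 (SE; edgeR adjusted p = 0.963). Hbb-bs averaged 2.52 ± 0.846 CPM in allogeneic KO and 3.94 ± 1.59 CPM in allogeneic WT libraries (SD, n = 3 each), a log2 fold change of -0.64 ± 0.578 (SE; edgeR adjusted p = 0.963). For each of these 3 genes the difference was within what the test allows for spread between libraries. The groups did not overlap for Fhdc1, and they did for Cd36 and Hbb-bs. Equal levels are not shown by this, since SEs of the members reached 0.88. The median was 0.55 without allogeneic WT replicate 1, 0.00998 without allogeneic KO replicate 1 and between -0.44 and -0.071 without any other single library.

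The second asked whether KO libraries differed between allogeneic and syngeneic recipients. It shares the allogeneic KO libraries with the first. The contrast of syngeneic KO with syngeneic WT was in view when the members were chosen. Syngeneic KO levels were therefore not independent of that choice, which limits the p-values of this comparison. 5 of the 33 members were called, 1 higher and 4 lower in allogeneic KO. Of all tested genes 13.2% were called higher and 11.2% lower, 24.4% in all. Beside these shares, 1 higher and 4 lower of 33 are near or below the background, so the number of edgeR calls sets nothing apart about the members. By DESeq2 9 were called, 2 higher and 7 lower in allogeneic KO. Of the 20817 genes that DESeq2 tested it called 2957 higher and 2380 lower, 25.6% in all. In edgeR 9 members fell under 0.05 before adjustment, as did 37.0% of all tested genes. For the members the median log2 fold change was -0.37, against -0.021 over all tested genes, and it turned to 0.26 without syngeneic KO replicate 3. The number called was 2 without allogeneic KO replicate 2, 3 without allogeneic KO replicate 3, also 3 without the third syngeneic KO library, and 8 without the second.

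Hbb-bs averaged 2.52 ± 0.846 CPM in allogeneic KO and 12.8 ± 10.4 CPM in syngeneic KO libraries (SD, n = 3 each), a log2 fold change of -2.35 ± 0.584 (SE; edgeR adjusted p = 0.0153). Its syngeneic KO libraries were all above the 3 allogeneic KO libraries, and syngeneic KO replicate 3 was the highest. Without that last library the log2 fold change was -1.45, and without allogeneic KO replicate 3 the call was lost (adjusted p = 0.058 by edgeR). Hba-a2 averaged 0.373 ± 0.186 CPM in allogeneic KO and 1.75 ± 1.37 CPM in syngeneic KO libraries (SD, n = 3 each), a log2 fold change of -2.21 ± 0.665 (SE; edgeR adjusted p = 0.036). Its groups did not overlap, but the call was lost without any 1 of 6 libraries, namely allogeneic KO replicates 1, 2 and 3, allogeneic WT replicate 2 and syngeneic KO replicates 1 and 3, with an adjusted p by edgeR up to 0.114, and under several other settings. Hba-a1 averaged 0.798 ± 0.441 CPM in allogeneic KO and 3.13 ± 3.07 CPM in syngeneic KO libraries (SD, n = 3 each), a log2 fold change of -1.99 ± 0.7295 (SE; edgeR adjusted p = 0.0755). It was not called by edgeR, and DESeq2 called it (adjusted p = 0.0245). Without syngeneic KO replicate 3 its log2 fold change was -0.80 (edgeR adjusted p = 0.33). Hbb-bt averaged 1.27 ± 0.694 CPM in allogeneic KO and 3.402 ± 2.71 CPM in syngeneic KO libraries (SD, n = 3 each), a log2 fold change of -1.43 ± 0.665 (SE; edgeR adjusted p = 0.15). Without syngeneic KO replicate 3 that value was -0.55. The alpha copies were both called by DESeq2, and the difference between copies was not tested in either pair.

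Tmcc2 averaged 0.757 ± 0.109 CPM in allogeneic KO and 3.55 ± 2.54 CPM in syngeneic KO libraries (SD, n = 3 each), a log2 fold change of -2.22 ± 0.512 (SE; edgeR adjusted p = 0.00975). All syngeneic KO libraries were above all allogeneic KO libraries. The log2 fold change was -1.45 without syngeneic KO replicate 3, and without allogeneic KO replicate 2 the call was lost (adjusted p = 0.0629 by edgeR). Fhdc1 averaged 0.766 ± 0.192 CPM in allogeneic KO and 1.76 ± 0.455 CPM in syngeneic KO libraries (SD, n = 3 each), a log2 fold change of -1.22 ± 0.341 (SE; edgeR adjusted p = 0.0204). Its groups did not overlap, and the call was lost without allogeneic KO replicate 2 or 3 or the third syngeneic KO library (adjusted p by edgeR 0.0594, 0.0674 and 0.0824). Slc4a1 averaged 4.23 ± 1.34 CPM in allogeneic KO and 16.1 ± 14.2 CPM in syngeneic KO libraries (SD, n = 3 each), a log2 fold change of -1.92 ± 0.679 (SE; edgeR adjusted p = 0.0671). Its groups did not overlap either. DESeq2 called it (adjusted p = 0.0301), as it did Trim10 (0.0316) and Ube2l6 (0.0282), which edgeR did not call. Trim10 was lower in allogeneic KO, but Ube2l6 was higher there, with edgeR log2 fold changes of -1.96 and 0.78. Without syngeneic KO replicate 3 the log2 fold change was -0.88 for Slc4a1 (edgeR adjusted p = 0.279) and -0.79 for Trim10 (0.353).

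Cd36 averaged 0.782 ± 0.6401 CPM in allogeneic KO and 0.133 ± 0.0405 CPM in syngeneic KO libraries (SD, n = 3 each), a log2 fold change of 2.55 ± 0.5803 (SE; edgeR adjusted p = 0.0065). All 3 allogeneic KO libraries were above all 3 syngeneic KO libraries. The log2 fold change was 1.68 without allogeneic KO replicate 2, whose level was the highest, and the call was kept when any single library was left out. The counts behind it were 15, 91 and 33 in allogeneic KO and 5, 7 and 9 in syngeneic KO libraries. The macrophage list and the platelet and megakaryocyte list moved in the same direction as Cd36. The summed level of 12 macrophage markers was between 37.8 and 40.98 CPM in allogeneic KO, against 11 to 26.7 CPM in syngeneic KO libraries, with no marker at 0. The summed level of 10 platelet and megakaryocyte markers was between 204.9 and 272.5 CPM in allogeneic KO, against 79.01 to 89.02 CPM in syngeneic KO libraries, where Treml1 was at 0. The list of 10 monocyte and neutrophil markers did not separate these groups. It lay at 299.7 to 623.4 CPM in allogeneic KO and 431.2 to 620.5 CPM in syngeneic KO libraries. The part of any of these cells in the Cd36 difference was not tested.

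**Figure D4:**
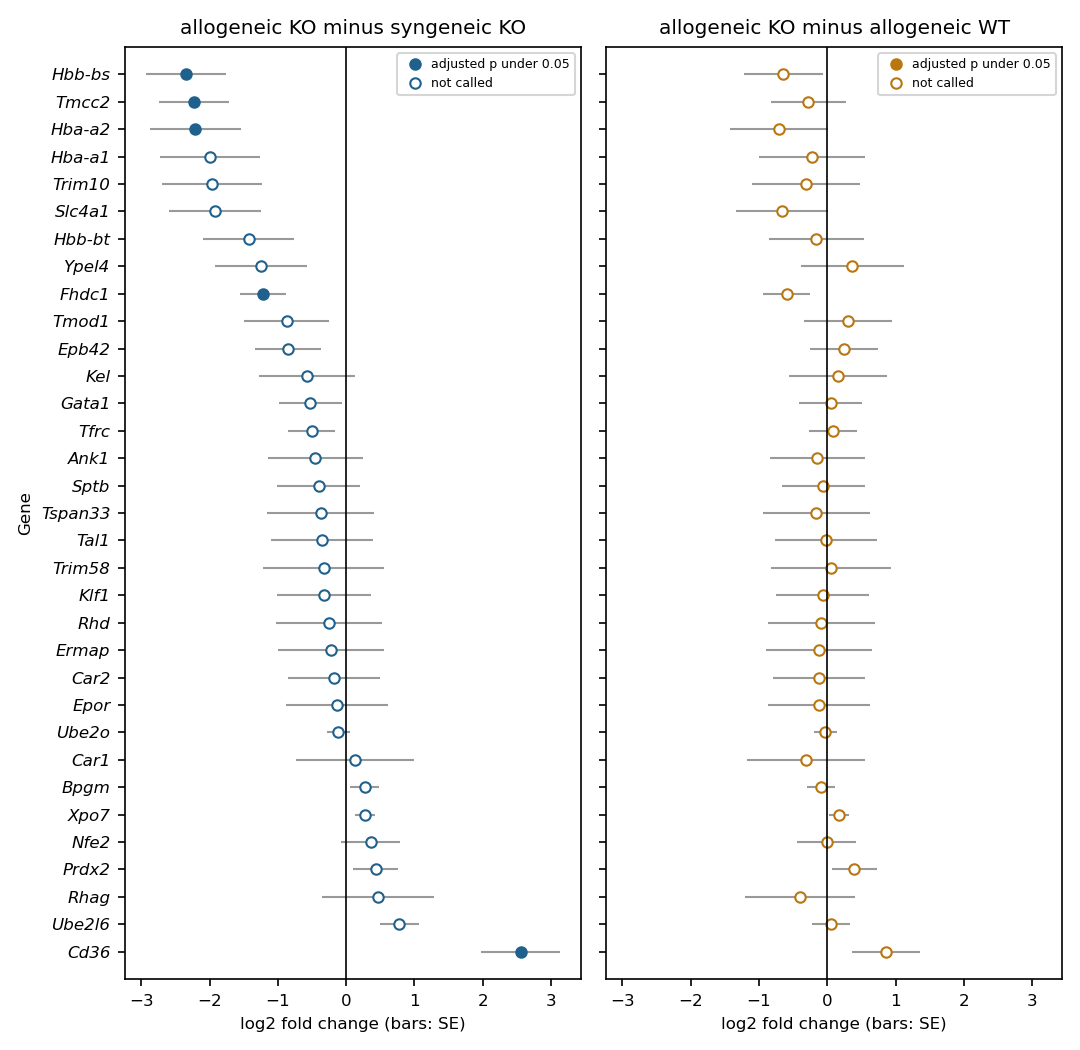
Log2 fold change with its SE (bars) of each gene for allogeneic KO minus syngeneic KO (left) and allogeneic KO minus allogeneic WT (right), in 1 common order. Filled points mark the 5 genes called by edgeR at an adjusted p under 0.05, all on the left: Cd36 above 0 and Hbb-bs, Tmcc2, Hba-a2 and Fhdc1 below.

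None of the other 28 members was called by edgeR in the second comparison. DESeq2 called Hba-a1, Slc4a1, Trim10 and Ube2l6 among them, as given above. Transcription factors lay between -0.52 for Gata1 and 0.36 for Nfe2 on the log2 scale, membrane and skeleton genes between -1.92 for Slc4a1 and -0.40 for Sptb, blood group genes between -0.57 for Kel and 0.47 for Rhag, and enzymes between -0.18 for Car2 and 0.43 for Prdx2. A p above the threshold does not show that these levels were equal, since their SEs reached 0.88.

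Genes of the same pathways, were read from lists that do not hold the members. Over these lists 0 of 60 tested genes were called in allogeneic KO against allogeneic WT, where 0.0542% of all tested genes were called. In allogeneic KO against syngeneic KO 8 were called higher and 4 lower, 12 of 60, where 24.4% of all tested genes were called. Of 12 genes of haem synthesis and mitochondrial iron, 0 were called in either tested comparison. Alas2 averaged 0.859 ± 0.286 CPM in allogeneic KO, 1.09 ± 0.248 CPM in allogeneic WT, 2.39 ± 1.68 CPM in syngeneic KO and 223 ± 84.8 CPM in syngeneic WT libraries (SD, n = 3 each). Alas2 makes the first step of haem in red cells. Slc25a37 averaged 22.1 ± 3.73 CPM in allogeneic KO, 25.9 ± 3.76 CPM in allogeneic WT, 32.7 ± 6.65 CPM in syngeneic KO and 433 ± 182 CPM in syngeneic WT libraries (SD, n = 3 each). Mitoferrin 1, the product of Slc25a37, brings iron into the mitochondrion. The list's median log2 fold change was -1.68 for syngeneic KO against syngeneic WT and -1.80 for allogeneic WT against syngeneic WT. Of 12 other membrane genes, 1 was called higher and 1 lower in allogeneic KO against syngeneic KO. Dmtn was at 0.469, 0.667 and 0.521 CPM in allogeneic KO, against 1.04, 1.598 and 3.47 CPM in syngeneic KO libraries, a log2 fold change of -1.87 ± 0.576 (SE; edgeR adjusted p = 0.0378). Slc2a1 was at 59.4, 58.7 and 57.2 CPM in allogeneic KO, against 48.9, 45.3 and 39.3 CPM in syngeneic KO libraries, a log2 fold change of 0.39 ± 0.128 (SE; edgeR adjusted p = 0.0398). Dmtn encodes dematin, a protein of the skeleton, and Slc2a1 the glucose transporter GLUT1. Of 12 other factors and cofactors, 0 were called against allogeneic WT, and 2 were called higher and 1 lower in allogeneic KO against syngeneic KO. Cbfa2t3 was at 40.9, 25.5 and 30.6 CPM in allogeneic KO, against 4.95, 9.27 and 14.9 CPM in syngeneic KO libraries, a log2 fold change of 1.73 ± 0.391 (SE; edgeR adjusted p = 0.00734). E2f2 was at 226, 168 and 186 CPM in allogeneic KO, against 149.6, 139.7 and 135 CPM in syngeneic KO libraries, a log2 fold change of 0.45 ± 0.145 (SE; edgeR adjusted p = 0.0389). Foxo3 was at 69.3, 53.9 and 73.6 CPM in allogeneic KO, against 94.97, 91.5 and 95.4 CPM in syngeneic KO libraries, a log2 fold change of -0.52 ± 0.146 (SE; edgeR adjusted p = 0.0208). These 3 are also active in T cells or other blood cells. Of 5 early progenitor genes tested, 1 was called lower. Cd34 was at 2.16, 0.984 and 2.37 CPM in allogeneic KO, against 2.19, 8.35 and 12.1 CPM in syngeneic KO libraries, a log2 fold change of -2.04 ± 0.555 (SE; edgeR adjusted p = 0.0185). Of 19 late maturation genes and enzymes, 5 were called higher and 1 lower in allogeneic KO against syngeneic KO, beside 13.2% higher and 11.2% lower over all tested genes. Mxi1 was at 16.6, 20.3 and 19.5 CPM in allogeneic KO, against 8.48, 8.22 and 10.9 CPM in syngeneic KO libraries, a log2 fold change of 1.03 ± 0.195 (SE; edgeR adjusted p = 0.00195). Rundc3a was at 2.02, 1.601 and 2.08 CPM in allogeneic KO, against 4.86, 3.94 and 5.02 CPM in syngeneic KO libraries, a log2 fold change of -1.28 ± 0.203 (SE; edgeR adjusted p = 0.000566). Bnip3l, Cat, Fam210b and Mkrn1 were the others called higher, with log2 fold changes of 0.77, 0.47, 0.72 and 0.53. The called genes of these lists, other than Dmtn and Cd34, were chosen for naming after their values were seen.

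Markers of other blood cells were measured beside these results. The summed level of 10 monocyte and neutrophil markers was between 299.7 and 623.4 CPM in allogeneic KO, 609.3 and 987.6 CPM in allogeneic WT, 431.2 and 620.5 CPM in syngeneic KO and 604.4 and 1320 CPM in syngeneic WT libraries. Macrophage markers summed to 33.9 to 37.9 CPM in allogeneic WT and 21.1 to 79.7 CPM in syngeneic WT libraries, with replicate 1 lowest and replicate 2 highest, as for the members. Platelet and megakaryocyte markers summed to 163 to 233 CPM in allogeneic WT, where Treml1 was at 0, and 94.7 to 102 CPM in syngeneic WT libraries. Mast cell and basophil markers summed to 12.6 to 17.5 CPM in allogeneic KO, 23.8 to 40.4 CPM in allogeneic WT, 2.53 to 7.06 CPM in syngeneic KO and 4.75 to 12.9 CPM in syngeneic WT libraries. B cell markers summed to 15.4 to 24.1 CPM in allogeneic KO, 11.2 to 13.8 CPM in allogeneic WT, 14.5 to 21.4 CPM in syngeneic KO and 14.7 to 17.3 CPM in syngeneic WT libraries. In syngeneic WT libraries the lists of monocytes and neutrophils, mast cells and basophils, and B cells were highest in replicate 3. The platelet and megakaryocyte list was highest there in replicate 1. The part of these other blood cells in the members' levels was not tested.

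**Figure D5:**
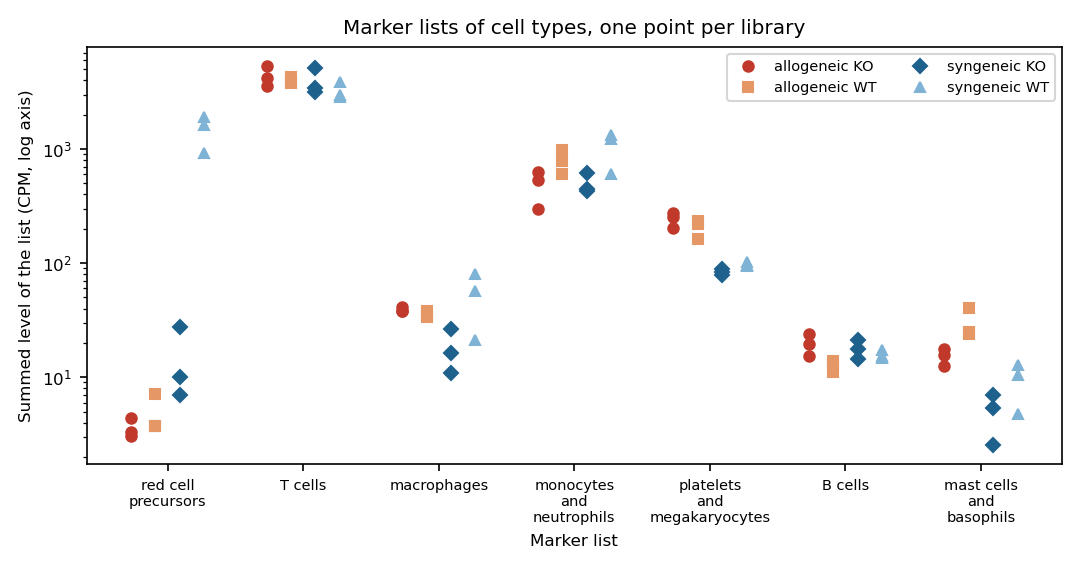
Summed level of 7 marker lists, in CPM on a log axis, with 1 point per library and groups side by side within each list. The red cell list (Hbb-bs and Epb42) lies between 3.05 and 27.3 CPM in the other 9 libraries and 930.9 and 1908 CPM in syngeneic WT libraries. The T cell list lies between 2842 and 5336 CPM over the 12 libraries and is lowest in syngeneic WT replicates 2 and 3.

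Some members share exons with a neighbour. Prdx2 overlaps Rnaseh2a and Junb, Tmcc2 overlaps Gm15849, Ank1 overlaps Gm15816, Sptb overlaps Plekhg3 and Tmod1 overlaps Tstd2, each on the opposite strand, and Xpo7 overlaps Npm2 on the same strand. Whether the counting used strand is not given in the sources used here, so reads of the overlaps cannot be told apart.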

How the data were processed

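Total RNA depleted of ribosomal RNA was sequenced from sorted T cells, and the authors deposited 1 table of expected counts per gene. The share of whole numbers was 94.5 to 95.0% in each library, and the library totals were unequal. Per the submitters' processing notes the build was GRCm38 and the tools included Cuffdiff 2.2.1, Cufflinks, Bowtie2 2.2.1 and TopHat2 2.0.13; the tool, annotation and strand setting of the counting are not given in the sources used here. The columns of 12 of 18 samples could be matched by name, and 6 further columns matched no sample and were not used, so naive samples were not analysed here. The members, the gene lists and the tests were chosen with earlier results of these data known.

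Expected counts were rounded and fitted with edgeR 4.0.16 (R 4.3.3, limma 3.58.1) in 1 robust quasi-likelihood model of 12 libraries with a mean per group (8 residual degrees of freedom, coefficient of variation 0.249), TMM scaling and filterByExpr (count minimum 10), with two-sided F tests and Benjamini-Hochberg adjustment over 18447 genes at 0.05. DESeq2 1.42.0, other scaling and filters, a replicate block, the 6 libraries of a comparison alone, removal of ribosomal RNA genes and leaving out each library were the alternatives. In simulated data for allogeneic KO against allogeneic WT (18106 genes), 45.5% of genes changed 2-fold and 81% of genes changed 4-fold were recovered, and 4.55% of calls were unchanged genes. The simulated means came from all 12 libraries and the spread from the trend over all genes. SEs of the members reached 0.88 in this comparison, so these rates are not rates for the members. CPM values were scaled by TMM-adjusted library sizes; exon lengths were GENCODE M21 unions. Values of every library are given for globins, membrane, blood group, regulator and receptor genes and for any called member, other members by range, and of each pathway list up to 4 members with the largest fold change between syngeneic KO and syngeneic WT; some genes of these lists are not reported here. The members are high in syngeneic WT, so comparisons with it are descriptions. Residual r of same-numbered syngeneic KO and WT libraries was from 0.17 to 0.545. It was from -0.501 to 0.363 for libraries of unlike number, with the highest for KO replicate 3 and WT replicate 2. The labels state no pairing, these values do not settle it, and members were not tested there.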

Additional observations from a re-analysis of the deposited data

Results flagged for a closer look

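Xpo7, which exports proteins from the nucleus, was flagged because KO and WT libraries lay in opposite directions in the 2 kinds of recipient, with no overlap in either. In allogeneic recipients all 3 KO libraries (130, 111 and 109 CPM) were above all 3 WT libraries (101, 103 and 108 CPM), with a log2 fold change of 0.17 ± 0.145 (SE, n = 3 each; edgeR adjusted p = 0.963), which was not called. In syngeneic recipients all 3 KO libraries (95.1, 99.7 and 94.1 CPM) were below all 3 WT libraries (210.0, 333 and 278 CPM), with a log2 fold change of -1.51 in the contrast that chose the members. All 33 members were below 0 in that contrast, and 11 were above 0 in allogeneic recipients, so opposite signs alone are shared by 11 members. The share of all tested genes without overlap in allogeneic recipients is not reported here, so nothing is read from the lack of overlap. The difference between the recipients was not tested, and Xpo7 overlaps the exons of Npm2 on the same strand.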

How the results depend on the processing

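Members called for allogeneic KO against allogeneic WT stayed at 0 under every alternative run. For allogeneic KO against syngeneic KO the number called was 5; it was 4 with the replicate block and with no filter, 6 with a stricter filter, 9 by DESeq2 and 3 with only the 6 libraries of the comparison, and it ran from 2 to 8 when 1 library was left out. The median log2 fold change of this comparison was -0.30 with the replicate block. Hba-a2 lost its call with the replicate block (adjusted p = 0.072 by edgeR), no filter (0.0839) and the 6 libraries alone (0.0571), and Fhdc1 with the 6 libraries alone (0.0596). The cause was not tested. Cd36 turned to -0.058 in allogeneic KO against allogeneic WT without allogeneic KO replicate 2, which holds its highest level, and it was highest at 1.19 without allogeneic KO replicate 1. Hbb-bt ran from -0.71 to 0.43 in this comparison when 1 library was left out. Medians of the descriptions ran from -5.08 to -4.06 for syngeneic KO against syngeneic WT and from -5.06 to -4.11 for allogeneic WT against syngeneic WT when 1 library was left out. In the tested comparisons r of same-numbered libraries was mixed in sign, so the block is given here only. It was 0.00979, -0.137 and 0.184 for allogeneic KO and WT, and 0.235, -0.317 and 0.423 for the KO groups. Without ribosomal RNA genes the library sizes are smaller, and the mean summed level of the members was higher in all 4 groups, at 571.7 CPM in allogeneic KO (463 with them), 545.3 in allogeneic WT (438.7), 587.8 in syngeneic KO (476.9) and 8224 in syngeneic WT (6486). Low counts limit several members, such as Cd36 with 5 to 9 counts in syngeneic KO libraries.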
